A study of Mus musculus with 4 samples.

Results

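The 10 genes described here are the epidermal growth factor (EGF) family ligands *Nrg1*, *Nrg2*, *Tgfa*, *Areg*, *Ereg* and *Hbegf* and the ERBB receptors *Egfr*, *Erbb2*, *Erbb3* and *Erbb4*, found by symbol among the 32287 features of 4 single-cell count tables. They are 6 ligands and 4 receptors. They were picked by name, not by a cut on a measured value, but with earlier results of these data known. The tables hold 10x Genomics 3' single-cell libraries of male E16.5 mouse penises, 2 from control embryos (DTA-) and 2 from embryos ablated of *Nr5a1* lineage cells (DTA+). All embryos carried a Rosa allele with a stop cassette before the diphtheria toxin A gene (*Rosa-LSL-DTA*). The ablated embryos also carried 1 copy of the *Nr5a1-Cre* transgene, which removes that stop in cells that express *Nr5a1*, so that the toxin is made there. The ablation need not be complete. By the study's methods the ablated embryos also carried a Cre-dependent *tdTomato* reporter allele (*Rosa-LSL-tdTomato*). The control embryos carried no Cre. *Nr5a1-Cre* is active in the testes and adrenals as well, so the ablation was not restricted to the penis. The questions are which cells of the penis made the ligands and which the receptors, and whether either differed between the genotypes. The replicate numbers do not state litters, so p-values measure the spread between these samples.

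EGF family ligands are made as membrane proteins and are released by ADAM proteases. TGFA and amphiregulin (*Areg*) bind EGFR, epiregulin (*Ereg*) and HB-EGF (*Hbegf*) bind EGFR and ERBB4, and the neuregulins (*Nrg1*, *Nrg2*) bind ERBB3 and ERBB4. Ligand binding joins receptors into pairs, in which ERBB2, which has no known ligand of its own, is the preferred partner, and ERBB3, whose kinase is weak, signals only through a partner. The pairs drive the RAS-ERK and PI3K pathways, which control growth and migration of epithelia and the survival of Schwann cells. Counting 3' ends does not tell the *Nrg1* isoforms apart.

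The libraries held 11343 to 12580 cell barcodes and 50779551 to 73577028 UMIs (unique molecular identifiers, each marking 1 captured mRNA). Between 31 and 48 barcode sequences were shared by any 2 libraries. Of the 47040 cells, 31132 were kept. These had between 1000 and 7500 UMIs and passed limits on mitochondrial and haemoglobin counts. The first control held the deepest kept cells, with a median of 4700 UMIs against 3551 to 4077 in the other libraries. The transcript of the reporter *tdTomato* had 3579 and 3140 UMIs in the ablated libraries and 0 in the controls. The genotype that the study states for the controls lists no reporter allele. *Nr5a1* had 1 or 2 UMIs in every library, so *Nr5a1* itself does not check the labels. Joint clustering gave 27 clusters. Of these, 22 were named from marker lists and merged into 14 populations, whose names stand for marker profiles ("epithelium-like" is shortened to epithelium, and so on). The other 5, with 8629 cells, are called by number and leading genes: cluster 0 (*Sostdc1*, *Wnt16*), cluster 5 (*Coch*, *Meox2*), cluster 6 (*Thbd*, *Ptgis*), cluster 13 (*Rprm*, *Dsc3*) and cluster 16 (*Kera*, *Nefl*). The members and the pathway genes were left out of the variable genes used for clustering. Levels are given in counts per 1000000 UMIs of that population and sample (CPM), always in the order control 1, control 2, ablated 1 and ablated 2.

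Each receptor and each well-detected ligand had its own distribution over the 19 populations. Among the kept cells *Erbb3* lay mostly in the Schwann and glial cells, with 83.1% of its 516 UMIs in 0.867% of the cells. Those 516 were 39.9% of the deposited *Erbb3* UMIs, and 752 of 1292 were in cells above the upper UMI limit. With those cells included, 330 of 564 cells with an *Erbb3* UMI were Schwann and glial cells and 154 were epithelial. *Egfr* was highest in the epithelium, the pericytes and cluster 16 and had no UMI in the Schwann and glial cells. *Hbegf* was highest in the Schwann and glial cells, the pericytes and the endothelium, and *Areg* lay mostly in a few cells of the mast cell cluster. *Nrg1*, *Nrg2*, *Tgfa*, *Ereg* and *Erbb4* did not reach a mean of 20 CPM in any population. The red blood cells serve as the background, though not as a clean floor. Barcodes richest in haemoglobin had been removed before, and whether those left express some of these genes was not tested. Leaving out the highest doublet scores (for 2 cells under 1 barcode) took the red blood cells from 152, 207, 174 and 69 to 112, 140, 126 and 39. They held means of 15.5 CPM of *Erbb2*, 13.4 CPM of *Hbegf*, 4.48 CPM of *Egfr*, 2.98 CPM of *Nrg1*, 2.02 CPM of *Nrg2*, 1.96 CPM of *Erbb4* and 0.812 CPM of *Erbb3*, and no UMI of *Tgfa*, *Areg* or *Ereg*. These means rest on 39, 36, 11, 5, 5, 5 and 1 UMIs in the same order. Some populations lay lower, such as the endothelium and the mast cells for *Egfr* (1.25 and 1.15 CPM). Levels at or below the red blood cell values are not read as expression, nor as its absence. Populations were built from the same cells, so differences between them are described without a test.

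**Figure D1:**
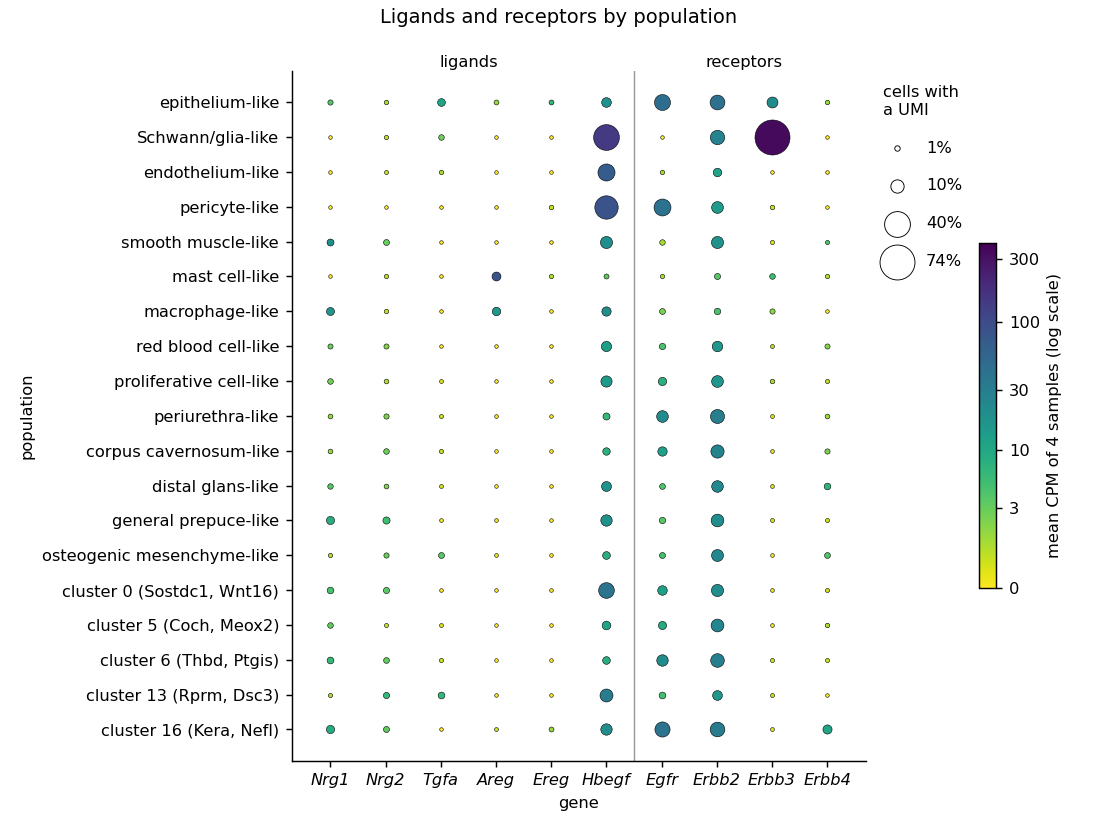
Level of each gene (columns) in each of the 19 populations (rows): colour is the mean CPM of the 4 samples on a log scale and dot area grows with the share of kept cells with a UMI. *Erbb3* in the Schwann/glia-like cells (74.4% of cells) and *Hbegf* in the same cells (40%) have the largest dots.

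*Hbegf* encodes heparin-binding EGF-like growth factor. In the Schwann and glial cells it stood at 109.5, 140.0, 172 and 145 CPM, and 40% of these cells had a UMI. In the pericytes it stood at 36.4, 99.2, 131 and 70.2 CPM. The first control had only 4 *Hbegf* UMIs in 21 pericytes, so its value is the least certain. In the endothelium, *Hbegf* stood at 63.6, 63.8, 65.0 and 88.9 CPM. Cluster 0 followed with 43.3, 38.3, 36.8 and 39.7 CPM, and its range did not overlap that of the endothelium above it. The ranges of the Schwann and glial cells and of the pericytes overlapped. Cluster 13 had a mean of 32.9 CPM, and 7 of the 19 populations reached 20 CPM. The epithelium, at 27.8, 19.5, 14.1 and 9.01 CPM on 30 UMIs, and the periurethra, at 5.16, 4.49, 8.82 and 6.35 CPM, did not stand above the red blood cells in all samples.

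*Nrg1* (chr8:31814551-32884029, minus strand; GRCm38 for all positions) encodes neuregulin 1, the ligand on which Schwann cells depend. It had 533 UMIs in 455 kept cells. In the general prepuce, the population with the most of them, it stood at 8.94, 7.68, 8.69 and 8.49 CPM, a level that was alike in the 4 samples. The 2 highest means, 19.2 CPM in the smooth muscle and 16.3 CPM in the macrophages, rest on 10 and 20 UMIs and ranged from 0 to 68.1 CPM and from 0 to 44.6 CPM. One macrophage held 12 of its 20 UMIs. The Schwann and glial cells had no *Nrg1* UMI in 270 cells, which allows a share of up to 1.11% of cells with a UMI, and the periurethra had 1.38, 3.59, 1.04 and 0.605 CPM. The epithelium had 6 *Nrg1* UMIs in 445 cells. Within the general prepuce the clusters differed. Cluster 3 (*Irx1*, *Col7a1*) had 4.70, 3.26, 13.8 and 10.1 CPM. Cluster 12 (*Ly6a*, *Igfbp5*), with 249 and 834 cells from the controls and 21 and 8 from the ablated samples, had 9.07 and 11.1 CPM in the controls and no UMI in the ablated samples.

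*Nrg2* encodes neuregulin 2. Its level was low in most mesenchyme and reached means of 6.44 CPM in cluster 13 and 5.31 CPM in the general prepuce, on 17 and 129 UMIs. *Tgfa* (chr6:86195223-86275719, plus strand) encodes transforming growth factor alpha. It had 112 UMIs, with 2.32, 25.1, 3.53 and 12.01 CPM in the epithelium and 2.09, 2.82, 17.3 and 4.93 CPM in cluster 13, and it was 0 in the red blood cells. The spread between samples was about as large as the mean in both. The osteogenic mesenchyme, where *Tgfa* stood at 4.23, 2.13, 3.88 and 4.59 CPM, had more even values.

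*Areg* (chr5:91139599-91148432, plus strand) and *Ereg* (chr5:91074622-91093646, plus strand) are neighbours and encode amphiregulin and epiregulin. *Areg* stood at 127, 9.18, 200.3 and 8.04 CPM in the mast cells. These values came from 11 of 269 cells, and 29 of the 92 UMIs were in a single cell, so the values of control 1 and ablated 1 stood far above those of the other two on few cells. The leading genes of this cluster also held *S100a9* and *S100a8*, which are not on its marker list. Which of its cells carried *Areg* was not tested. The genes with levels most like those of *Areg* were *Rgs18*, *S100a8* (both r = 0.996) and *Rasal3* (r = 0.995). The macrophages followed with 0, 12.97, 15.9 and 29.1 CPM, on 17 UMIs. *Ereg* had 18 UMIs in all kept cells. Of these, 9 were in the epithelium, 7 of them in 1 cell, and 6 in cluster 16. Only 31.2% of the deposited *Areg* UMIs lay in kept cells, and 266 of 388 were in cells above the upper UMI limit. With those deeper cells included, the mast cells had 37.6, 4.37, 275 and 120.1 CPM and the macrophages 20.8, 20.1, 16.9 and 14.1 CPM, so the macrophage level became even between samples and the mast cell level did not.

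*Erbb3* (chr10:128567523-128589652, minus strand) encodes the neuregulin receptor of Schwann cells. In the Schwann and glial cells it stood at 316, 294, 375 and 382 CPM, and 201 of the 270 cells had a UMI. All 4 samples lay far above every other population. The epithelium was next with 9.28, 25.1, 17.7 and 33.0 CPM, and with the deeper cells its values were 26.6, 23.8, 26.5 and 41.6 CPM. The periurethra had 4 *Erbb3* UMIs in 2557 cells, a level at or below the background. Leaving out the limit lowered the Schwann and glial mean to 280 CPM. The 3 genes whose levels over the 19 populations were most like those of *Erbb3* were *Ppp1r14c* (Pearson r = 0.993), *Pou3f1* (r = 0.986) and *Cck* (r = 0.980).

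*Egfr* (chr11:16752203-16918158, plus strand) encodes the EGF receptor. In the epithelium it stood at 39.4, 64.2, 35.3 and 48.0 CPM, in the pericytes at 45.5, 26.8, 38.1 and 53.7 CPM, and in cluster 16 at 21.2, 39.0, 54.8 and 44.2 CPM. The ranges of these 3 populations overlapped. With the deeper cells, which made up 34.1% to 51.5% of the epithelial cells of each sample, the epithelium had 60.5, 58.9, 63.0 and 60.8 CPM, nearly the same in all 4 samples, and the pericytes had 22.4, 25.3, 36.7 and 29.99 CPM, below the epithelium in every sample. The periurethra had 26.5, 24.7, 16.6 and 19.3 CPM. Within it, cluster 10 (*Mup17*, *Epha3*) had 38.3, 36.8, 40.9 and 23.2 CPM. In the Schwann and glial cells *Egfr* had no UMI in 270 cells, while 14.8% of the epithelial cells had one at a lower median depth (3524 against 4640 UMIs). Among the 146 deeper Schwann and glial cells, 3 had an *Egfr* UMI. The genes with the levels most like those of *Egfr* were *Hspa1b* (r = 0.831), *Gstm2* (r = 0.826) and *Fap* (r = 0.749).

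*Erbb2* (chr11:98412470-98437716, plus strand) encodes the receptor that partners the others. It reached a mean of 20 CPM in 11 of the 19 populations. In the epithelium it stood at 46.4, 41.8, 44.1 and 39.0 CPM, and all 4 values lay above the 10.5 to 19.5 CPM of the red blood cells. The periurethra had 31.3, 25.6, 32.7 and 30.5 CPM and the Schwann and glial cells 36.5, 23.9, 26.1 and 25.3 CPM. The order of neighbours among the 19 populations was not resolved, since each overlapped the next. The means ran from 42.9 CPM in the epithelium to 3.87 CPM in the mast cells. *Erbb4* (chr1:68032186-69108059, minus strand), the second neuregulin receptor with a full kinase, was low. It stood at 11.2, 9.23, 15.99 and 7.17 CPM in cluster 16 and at 3.45, 4.55, 14.3 and 5.88 CPM in the distal glans, where cluster 2 (*Msx2*, *Inhba*) held 91 of 97 UMIs. The Schwann and glial cells had no *Erbb4* UMI.

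**Figure D2:**
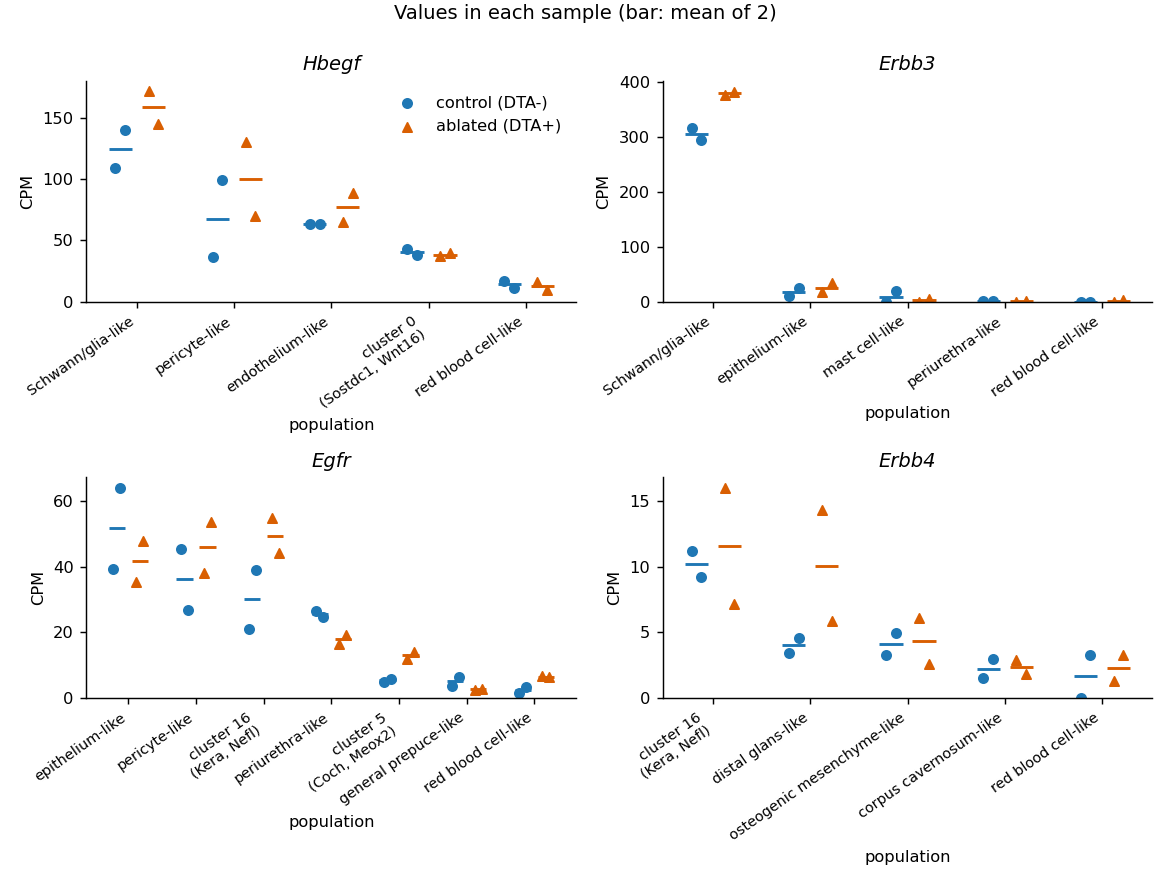
CPM (vertical axis, each panel on its own linear scale from 0) of *Hbegf*, *Erbb3*, *Egfr* and *Erbb4* in each sample, in the populations with the highest levels, those named in the comparison of genotypes and the red blood cell-like background. Circles are the 2 controls, triangles the 2 ablated samples and bars their means, and *Erbb3* in the Schwann/glia-like cells, between 294 and 382, lies above every other population in its panel.

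Receptors that work as pairs were also counted in single cells. Among the 299 epithelial cells above the UMI limit, with a median of 15651 UMIs, *Egfr* was found in 186, *Erbb2* in 150 and *Erbb3* in 125. *Egfr* and *Erbb2* were found together in 115 of them, and *Erbb2* and *Erbb3* in 89. In the 445 kept epithelial cells, with a median of 3524 UMIs, the same pairs were found in 17 and 5 cells. In the 270 kept Schwann and glial cells, *Erbb2* was found in 32, *Erbb3* in 201 and both in 23. In the 146 deeper ones, *Erbb2* was found in 37, *Erbb3* in 129 and both in 32. Whether any of these pairs was found more often than separate detection would give was not tested. A cell without a UMI may still express a gene at this depth, so the pairs are counts of detection.

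Over all kept cells, none of the members was called different between the genotypes by edgeR's quasi-likelihood test at a Benjamini-Hochberg adjusted p under 0.05. The members passed the filter on low counts in 9 of 10 cases (all but *Ereg*), and 1 of the 9 had an unadjusted p under that limit. Of the 15977 genes tested, 78 were called (0.488%) and 2409 had an unadjusted p under 0.05. *Nrg1* stood at 3.35, 4.45, 5.05 and 3.96 CPM, with overlapping genotypes and a log2 fold change (ablated over control) of 0.13 ± 0.24 (SE), 95% interval -0.44 to 0.70. The interval of *Egfr* ran from -0.49 to 0.52 and that of *Erbb2* from -0.24 to 0.33. *Erbb3* stood at 3.02, 3.38, 5.52 and 4.37 CPM, higher in both ablated samples, with a log2 fold change of 0.55 ± 0.22 (SE) and an adjusted p of 0.310. Pooled counts alone do not separate the number of Schwann and glial cells from their *Erbb3* level. Within the kept Schwann and glial cells *Erbb3* stood at 316, 294, 375 and 382 CPM and was not called. These cells made up 0.761%, 0.851%, 1.10% and 0.749% of the kept cells. With the deeper cells they numbered 116, 87, 121 and 92, among 9086, 9160, 9005 and 9927 cells. The upper UMI limit had left out 66, 20, 34 and 26 of them, and 2513, 1286, 1130 and 1117 of all cells. With these included, *Erbb3* stood at 7.04 and 4.47 CPM over all cells of the controls. In cells with and without a *tdTomato* UMI, ablated 1 had 8.79 and 7.53 CPM and ablated 2 had 5.92 and 5.13 CPM. Ablated 2 was then below control 1, so the higher *Erbb3* of both ablated samples held for the kept cells only. *Areg* had the widest interval, from -1.22 to 3.28. The median log2 fold change of the 9 members was 0.22, against -0.0027 over all genes tested. The genotypes did not overlap in 6 of the 9, while 49.4% of all genes tested did not.

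Within the populations, 48 pairs of a member and a population could be tested, and 1 was called. Over the same 18 fits, 3.41% of all genes tested were called. The genotypes did not overlap in 20 of the 48 pairs, or about the 44.4% found over all genes. *Hbegf* could be tested in 15 populations, *Erbb2* in 13 and *Egfr* in 11, *Nrg1* in 4, *Nrg2* in 2, and *Areg*, *Erbb3* and *Erbb4* in 1 each. *Tgfa* and *Ereg* passed the filter in none. The smooth muscle, with 129, 194, 31 and 12 cells, was not tested. The share of all genes called differed widely between the fits. It was 13.3% in cluster 6, 9.81% in cluster 5, 7.51% for the corpus cavernosum, 5.47% for the distal glans, 3.35% for the periurethra, 2.88% in cluster 0, 2.17% in the osteogenic mesenchyme and 1.7% in the general prepuce. It was 0.439% in cluster 16, 0.42% in the proliferative cells, 0.371% in the red blood cells, 0.162% in the pericytes, 0.105% in the Schwann and glial cells, 0.0753% in cluster 13 and 0.0177% in the endothelium. In the epithelium, the macrophages and the mast cells 0% were called, so members there are given by their values and intervals.

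The called pair was *Egfr* in cluster 5, the mesenchyme led by *Coch*, *Meox2* and *Wif1*. *Egfr* stood there at 4.97, 5.85, 11.97 and 14.1 CPM, so both ablated samples were above both controls. The log2 fold change was 1.22 ± 0.38 (SE), with an adjusted p of 0.0409 (edgeR quasi-likelihood test), in a population in which 9.81% of all genes were called. The values rest on 24 UMIs in the controls and 46 in the ablated samples, and the control levels lay within those of the red blood cells (1.56, 3.28, 6.58 and 6.49 CPM), which were also higher in both ablated samples. The median depth of the cluster 5 cells was 5059, 4172, 3240 and 3438 UMIs, lower in the ablated samples. With every cell thinned to 1000 UMIs, *Egfr* in cluster 5 stood at 8.28, 2.06, 16.2 and 11.9 CPM on 20 UMIs in all, so both ablated samples were still higher, but the gene no longer passed the filter on low counts and could not be tested. The call was kept in 1 of the 4 fits that left out a sample. In these fits the log2 fold change ran from 1.10 to 1.33 and the adjusted p from 0.0482 to 0.236, and the call was lost without control 1, without ablated 1 and without ablated 2.

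In 2 other tested populations *Egfr* was lower in both ablated samples than in both controls, without being called. In the periurethra the log2 fold change was -0.55 ± 0.22 (SE; adjusted p = 0.264 in the edgeR fit). The 4 periurethra values given above do not overlap between the genotypes, with both controls higher. In the general prepuce *Egfr* had 3.79, 6.42, 2.54 and 2.72 CPM, with a log2 fold change of -1.09 ± 0.38 (SE; adjusted p = 0.272 in the edgeR fit). Its mean there, 3.87 CPM, lay below that of the red blood cells, which rests on 11 UMIs. These values are therefore read neither as expression nor as its absence. Both ablated samples were higher, without being called, in cluster 16 (values above), in cluster 0, at 10.4, 10.2, 15.9 and 11.9 CPM, and in the proliferative cells, at 3.92, 8.16, 10.5 and 9.04 CPM. The *Egfr* log2 fold change was above 0 in 7 of the 11 populations. The log2 fold change in cluster 5 was 1.82 above that in the periurethra (interaction test in edgeR with sample as a block, adjusted p = 0.0204), a pair of populations chosen after the values were seen. In the epithelium, where the level was highest, the 95% interval of the *Egfr* log2 fold change ran from -1.25 to 0.47.

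**Figure D3:**
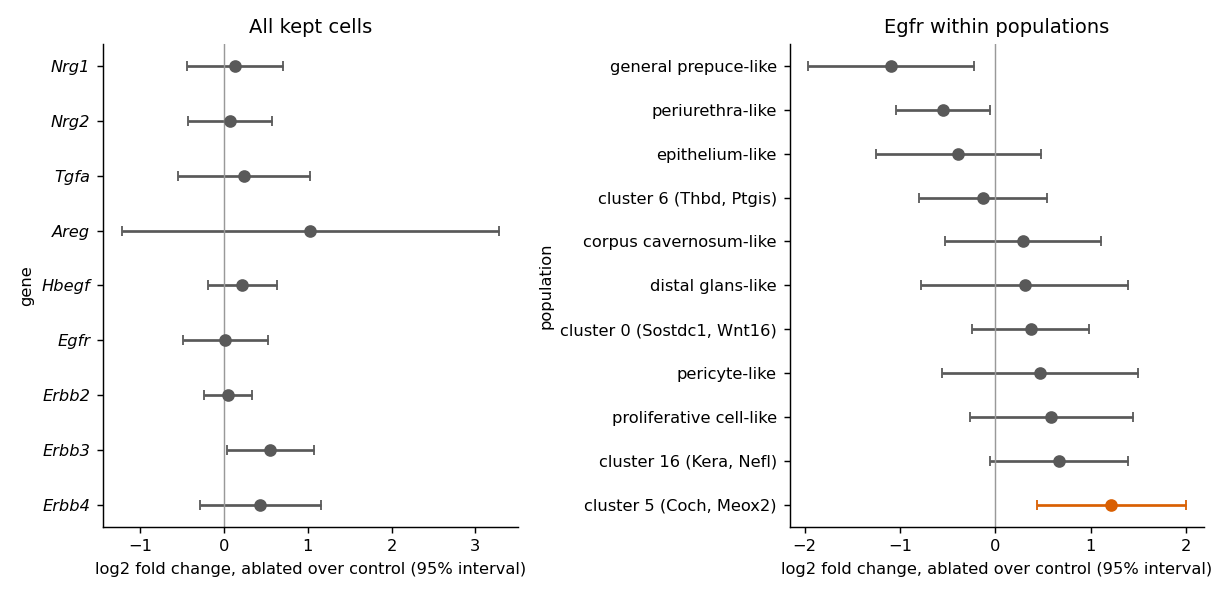
Log2 fold change of ablated over control with its 95% interval, on the left for the 9 members tested over all kept cells and on the right for *Egfr* in the 11 populations where it could be tested. Orange marks the 1 result with an adjusted p under 0.05, *Egfr* in cluster 5, and the grey intervals belong to results that were not called.

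The other receptors and ligands had these values. *Erbb4* in the distal glans was higher in both ablated samples (values above), with a log2 fold change of 1.2 ± 0.44 (SE; adjusted p = 0.127 in the edgeR fit, where 5.47% of genes were called). It was called with no filter on low counts (adjusted p = 0.0261), and without ablated 2 its log2 fold change was 1.82 (0.00212, both edgeR). Without ablated 1, the highest sample, it was 0.54 (adjusted p = 0.753, edgeR). *Hbegf* in the distal glans stood at 12.7, 14.4, 20.7 and 23.0 CPM. Both ablated samples were higher, by 0.67 ± 0.21 (SE) on the log2 scale (adjusted p = 0.0791, edgeR). In cluster 4 (*Tac1*, *Tfap2c*) alone, 2129 of the 4591 cells of that population, it stood at 14.3, 14.9, 28.5 and 29.9 CPM. It was called there, with a log2 fold change of 0.96 and an adjusted p of 0.0174 in edgeR (a fit added after the data were seen). That fit called 904 of the 10131 genes tested. In the Schwann and glial cells *Hbegf* and *Erbb3* were higher in both ablated samples, and the intervals of their log2 fold changes ran from -0.23 to 0.84 and from -0.16 to 0.72. *Hbegf* in the corpus cavernosum, at 2.25, 7.43, 14.1 and 6.94 CPM, had a log2 fold change of 1.00 (adjusted p = 0.202, edgeR), and without control 2 it was 2.13. Its mean there, 7.67 CPM, lay below the 13.4 CPM of the red blood cells, so these values are not read as expression. *Nrg1* in the general prepuce differed by -0.02 on the log2 scale, with an interval from -0.59 to 0.56. That population was made up of different clusters in the 2 genotypes, so the value is not a comparison of like cells. Cluster 12 held mostly control cells (counts above), and cluster 8 (*Akap12*, *Iyd*), with 11 *Nrg1* UMIs, held 30, 15, 727 and 587 cells of the 4 samples. In cluster 3 alone, which had many cells from every sample, both ablated samples were higher (values above), with a log2 fold change of 1.61 ± 0.40 (SE) that was not called (adjusted p = 0.133 in edgeR, in a fit of the unmerged clusters added after the data were seen). In cluster 0 *Nrg1* was lower in both ablated samples, at 4.70, 7.21, 3.04 and 3.66 CPM, with an adjusted p of 0.389 (edgeR). At the higher alternative resolution, leading genes of cluster 0 marked clusters with unlike shares of the genotypes. One led by *Sostdc1* and *Col6a6* held 488, 921, 272 and 318 cells of the samples. Its name, from *Myocd*, *Col6a6* and *Col23a1*, was that of *Nr5a1* lineage mesenchyme. The other markers on that list, *Grem1*, *Scube2*, *Adamts9* and *Timp1*, did not pass the limits for enrichment there. One led by *Gria2* and *Iyd* held 76, 47, 955 and 690. The comparisons of genotypes in cluster 0, here and above, may therefore not be of like cells, which was not tested.

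A list of 61 other genes of the pathway, 60 of which were among the features, was followed in the same fits: 5 other ligands, 10 sheddases and cofactors, 19 adaptors and effectors, 14 genes of receptor turnover and inhibition and 13 genes that respond to ERK. None was called over all kept cells, where 57 could be tested and 15 had an unadjusted p under 0.05. Their median log2 fold change there was 0.13. Within the populations, 32 of 760 pairs were called, 19 higher and 13 lower in the ablated samples, from 20 genes, beside 3.41% of all genes over the same fits. By list, 10 of the higher and 6 of the lower calls were ERK response genes, 7 and 2 were genes of receptor turnover and inhibition, 1 and 3 sheddases or cofactors, and 1 and 2 adaptors or effectors. Only 1 pair of the other ligands could be tested, and it was not called. The share called, 10 of 49 genes in cluster 6 (20.4%, against 13.3% of all genes there) and 6 of 51 in the distal glans (11.8%, against 5.47%), was above that of all genes, and in cluster 5 it was 10.2% against 9.81%. In the other populations with a call, it was 6.38% against 2.17% in the osteogenic mesenchyme, 3.92% against 2.88% in cluster 0, 4% against 3.35% in the periurethra and 1.92% against 1.7% in the general prepuce. In the corpus cavernosum it was below that of all genes, at 6.25% against 7.51%.

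*Errfi1*, which encodes a feedback inhibitor that binds the ERBB kinase domain, fell in 2 populations. In cluster 6 it stood at 105, 133, 20.7 and 19.7 CPM, a log2 fold change of -2.60 ± 0.22 (SE) with an adjusted p of 9.91e-09 (edgeR). In the periurethra it stood at 71.6, 117, 19.7 and 20.6 CPM, with -2.26 ± 0.25 (SE) and an adjusted p of 0.00143 (edgeR). Both controls were far above both ablated samples in each population, and the calls were kept whichever sample was left out. At the higher alternative resolution, leading genes of cluster 6 marked clusters that were split by genotype. A cluster led by *Thbd* and *Ptgis* held 395, 399, 6 and 16 cells of the samples. A cluster with *Dcc* and *Thbd* among its leading genes held 48, 20, 460 and 451. The cluster 6 values here and below, and the share of genes called there, may therefore not compare like cells, which was not tested. *Errfi1* was not called in the general prepuce, where it stood at 49.9, 117, 40.1 and 27.7 CPM (adjusted p = 0.134, edgeR). As stated for *Nrg1*, the general prepuce was made up of different clusters in the 2 genotypes. Its values here and below, and the share of genes called there, are therefore not a comparison of like cells. *Phlda1*, an ERK response gene, fell in the same 2 populations, to 15.9 and 34.3 CPM from 132 and 179 CPM in cluster 6 and to 24.4 and 47.5 CPM from 159 and 197 CPM in the periurethra. It also fell in the corpus cavernosum (log2 fold change -1.53) and in the general prepuce (-1.07). The last was lost without control 2 (adjusted p = 0.148 in edgeR) and without ablated 1 (0.0838).

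*Etv1*, an ETS transcription factor that responds to ERK, rose in 5 populations: cluster 6 (log2 fold change 1.67), the distal glans (1.33), the osteogenic mesenchyme (1.06), cluster 5 (0.85) and the corpus cavernosum (0.72). In cluster 6 it stood at 17.8, 20.2, 59.6 and 65.4 CPM, and in the distal glans at 26.01, 26.1, 78.2 and 58.9 CPM. Without ablated 1, the calls in cluster 5 (adjusted p = 0.366), the osteogenic mesenchyme (0.374) and the corpus cavernosum (0.0758) were lost, and the last was also lost without ablated 2 (0.277, all edgeR). Its periurethra values, at 28.6, 31.9, 25.4 and 27.2 CPM, were lower in both ablated samples and not called. *Etv5*, of the same subfamily, rose in the corpus cavernosum from 3.75 and 3.71 to 21.3 and 27.0 CPM. *Ier3*, an early response gene, rose in cluster 5, from 38.1 and 64.8 to 159.9 and 121 CPM, and in the distal glans, and *Fos* rose in cluster 5, where it stood at 771, 2450 and then 4074 and 2997 CPM. The *Fos* call was lost without ablated 1 (adjusted p = 0.153, edgeR), and its log2 fold change was 0.50 without control 1 and 2.15 without control 2, against 1.11 with all samples. Over all kept cells *Fos* stood at 1752, 4515, 4328 and 3892 CPM, so the first control was apart from the other 3 samples. *Spry2*, an inhibitor of RAS signalling, rose in the distal glans, from 16.8 and 14.8 to 24.4 and 42.4 CPM, and was lost without ablated 2 (adjusted p = 0.333 in edgeR).

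In cluster 6 the inhibitors *Lrig3* (log2 fold change 0.77) and *Spred2* (0.77) rose and the sheddase *Adam15* fell (-0.91), and in cluster 5 *Hras* fell (-0.77). Each of these 4 calls was lost in 2 or more of the fits that left out a sample. *Ccnd1*, which encodes cyclin D1, rose in the osteogenic mesenchyme, where it stood at 149.95, 120.1, 272 and 211 CPM (log2 fold change 0.82), and was lost without ablated 1 (adjusted p = 0.234, edgeR). In cluster 6 it stood at 18.3, 71.4, 19.1 and 20.9 CPM and was called lower (-1.16, adjusted p = 0.0482 in edgeR), but without control 2 the log2 fold change was 0.07, so that call rests on 1 sample.

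**Figure D4:**
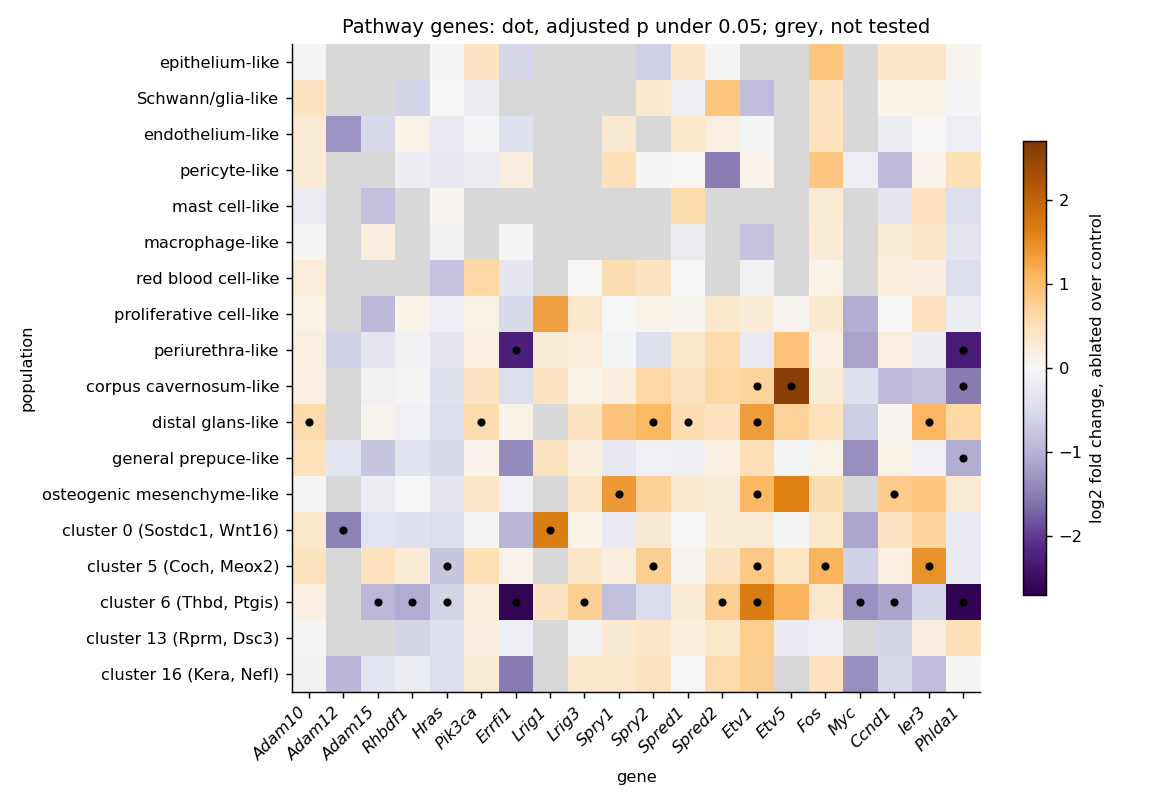
Log2 fold change of ablated over control for the 20 pathway genes called in at least 1 population (columns, ordered by list) in the 18 populations tested (rows). Dots mark adjusted p under 0.05 and grey cells were not tested: *Errfi1* and *Phlda1* are lowest in cluster 6 and the periurethra-like cells, and *Etv1* is called higher in 5 populations.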

How the data were processed

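Dissociated penises of E16.5 male embryos were sequenced as 4 10x Genomics 3' libraries, 2 control and 2 ablated. The deposited matrices hold raw UMI counts per gene and barcode, which the authors made against mm10 with Cell Ranger 4.0.0, the version in the submitters' processing notes. Low-quality and very deep barcodes were removed by UMI count (limits 1000 and 7500) and by the share of mitochondrial (25%), *Hba* (25%) and *Hbb* (50%) reads. Seurat 5.3.0 clustered all samples together at resolution 0.8, from 30 principal components of 2000 variable genes. Names required 3 or more enriched markers (5% of cells, 0.8 on the log2 scale with 10 CPM added) with at least 1 among the 10 leading genes, under limits chosen with the data in view. An automatic doublet call marked 3 cells, so doublets stayed in, and 2917 cells with the highest scores were left out as an alternative.

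Pseudobulk sums (20 or more cells in each sample) were compared between genotypes with edgeR 4.0.16 in R 4.3.3 (TMM, filterByExpr, two-sided quasi-likelihood test) and Benjamini-Hochberg adjusted over all genes of a fit, after a check on simulated data. With 200 genes changed by a log2 fold of 1, the check recovered 54.5% over all kept cells. It recovered 16.5% in the Schwann and glial cells and 2.5% in the epithelium. Over all kept cells it recovered 1 of 37 changed genes with a mean under 40 counts. A gene that was not called is therefore not shown to be unchanged. An exact permutation test of 2 against 2 samples cannot go below 0.333 and was not used. Where a share is 0, the limit is that of 3 counts and covers counting error only. The members and lists were chosen with earlier results of these data known. Text names all members and, of the pathway lists, at most 3 higher and 3 lower called genes per population with a mean of 20 CPM and no overlap. *Etv5* in the corpus cavernosum and *Ccnd1* in cluster 6 lie outside this rule and were named after their values were seen. Genes most like a member had the highest Pearson r over the 19 populations, among 10264 genes on log2(CPM + 10), as a description. Alternatives were DESeq2 1.42.0, a likelihood ratio test, no filter, the replicate number as a block, no upper UMI limit, thinning to 1000 UMIs, doublet scores, resolutions 0.4 and 1.2, and each sample left out. Crossed replicate numbers, unmerged clusters and all deposited barcodes were added after seeing the data.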

Additional observations from a re-analysis of the deposited data

Results flagged for a closer look

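The log2 fold change of *Egfr* with genotype in cluster 5 was 1.82 above that in the periurethra (adjusted p = 0.0204) and 2.26 above that in the general prepuce (adjusted p = 0.0229), by an edgeR interaction test with sample as a block. These contrasts set the 1 called increase against 2 populations picked for their decreases after the values were seen, so they are given as values. In the general prepuce the mean *Egfr* level of 3.87 CPM lay below the 4.48 CPM of the red blood cells, and the difference of 2.26 is not read as a difference in response. The cluster 5 call itself was lost in 3 of the 4 fits that left out a sample.

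The log2 fold change of *Ccnd1* in the osteogenic mesenchyme was 1.88 above that in cluster 6 (adjusted p = 0.0212 by the same edgeR test, also chosen after the values were seen). The value in cluster 6 rests on control 2, where *Ccnd1* stood at 71.4 CPM against 18.3 CPM in control 1.

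No test used the lineage reporter *tdTomato*, though the *Erbb3* values of the ablated samples over all cells were given split by it. The reporter had 3579 UMIs in ablated 1 and 3140 UMIs in ablated 2, against 0 in both controls. It was found in 24.4% and 23.2% of the ablated cells that passed the lower limits, and 23 and 2 of those cells had more than 10 UMIs. The study's methods describe a leaky background of this transcript in most cells, so a cell with a few UMIs is not read as a lineage cell. The genotype that the study states for the controls lists no reporter allele, so their 0 does not show that they lacked such cells.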

How the results depend on the processing

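No member was called over all kept cells under any alternative. Within populations, the 1 member call became 0 with DESeq2, 2 without the filter, 0 after thinning, 2 with unmerged clusters and 0 to 2 with a sample left out. After thinning, *Egfr* in cluster 5 had too few counts to be tested, with means of 5.17 CPM in the controls and 14.1 CPM in the ablated samples. No pathway gene was called over all kept cells, against 3 with DESeq2, 4 with the likelihood ratio test, 3 without the filter and 0 to 2 with a sample left out. The 32 pathway calls within populations became 12 with DESeq2, 50 with the likelihood ratio test, 62 without the filter, 16 after thinning, 19 at resolution 1.2 and 27 to 88 with a sample left out. Deviations of same-numbered samples from their genotype means had a weak inverse correlation over all kept cells (r = -0.234 over 15977 genes). Within populations r ran from -0.224 in the Schwann and glial cells to 0.0804 in the epithelium. With the replicate block the 3 counts were 2 for members within populations, 2 for pathway genes over all kept cells and 46 within populations. Under the block *Erbb4* in the distal glans was called (log2 fold change 1.27, adjusted p = 0.0215 in edgeR) and *Etv1* in the corpus cavernosum was not (0.71, 0.0978). The crossed pairing gave 3, 11 and 70. The cause of these changes was not tested.

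Of 523 alternative log2 fold changes of 44 results, 456 kept their direction and side of the threshold, 44 lost a call, 6 gained one and 17 turned direction. Over all kept cells *Erbb2* turned to -0.065 after thinning. *Nrg1* in the general prepuce became 0.33 without the upper UMI limit, 0.12 after thinning and 0.13 without the highest doublet scores. *Erbb2* in the epithelium became 0.038 without those scores, and *Hbegf* in the Schwann and glial cells -0.0062 without the upper limit. With a sample left out, the lowest and highest values were -0.78 and 2.56 for *Areg* in all kept cells, -0.063 and 0.34 for *Nrg1* in all kept cells, -0.21 and 0.27 for *Egfr* in all kept cells, -0.00028 and 0.089 for *Erbb2* in all kept cells, -0.13 and 0.073 for *Nrg1* in the general prepuce, -3.05 and 3.51 for *Areg* in the mast cells and -0.046 and 0.25 for *Erbb2* in the periurethra. Of 70 alternative levels of the 10 members, each in its highest population, 2 moved by more than 1 SD of the 4 samples, both without the upper limit: *Egfr* in the epithelium (60.8 CPM) and *Erbb3* in the Schwann and glial cells (280 CPM). *Tgfa*, *Ereg*, *Nrg2* and *Erbb4* rest on 112, 18, 367 and 260 UMIs in the kept cells, which limits their precision.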
